A study of Mus musculus with 3 samples.

Results

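The RAS family small GTPases are molecular switches that pass signals from the cell surface and from nutrient sensors to kinase cascades, and 9 of their genes (Hras, Nras, Rras, Rras2, Mras, Rala, Ralb, Rap1a and Rheb) were followed here among the 49997 genes of an RNA immunoprecipitation sequencing (RIP-seq) table. They were taken by gene symbol. The family was picked because Hras, of all well-covered transcripts, stood highest in YTHDF2 IP over input. The comparison of IP with input therefore served to choose them, and their values in it are given as a description with no test. All 9 passed the filter on low counts, which left 19601 genes.

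YTHDF2 is a cytoplasmic reader of N6-methyladenosine (m6A), an internal mark on mRNA, and is known to bring bound transcripts to decay. The study asked which transcripts YTHDF2 binds in mouse embryonic stem cells (ESCs) while Dux, a transcription factor of the 2-cell (2C) embryo, is switched on. The libraries came from E14 ESCs given doxycycline (Dox) for 24 h, with 1 input library and 2 anti-YTHDF2 IP libraries, and the study describes its cells as carrying a Dux transgene induced by Dox and a tdTomato transgene driven by the Mervl promoter. All 3 libraries thus share line, transgenes and Dox, no control-antibody IP was analysed here, and nothing states that the IP libraries came from separate cultures, so their spread may be technical.

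RAS proteins hold GTP when active and GDP when at rest. Exchange factors load GTP, GTPase-activating proteins speed its hydrolysis, and the GTP-bound form engages effectors such as RAF kinases, phosphoinositide 3-kinases and exchange factors for RAL. The members end in a CAAX box, whose cysteine receives the lipid that anchors the protein to membranes. In mouse ESCs, signalling through FGF, RAS and ERK is known to push cells out of naive pluripotency.

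Total counts were 36986994 for the input and 35259827 and 35888743 for IP replicates 1 and 2. Mates of a pair were counted singly, so a count is closer to a read end than to a fragment. The input held the defining transcripts of pluripotent cells, with Pou5f1 at 2153, Nanog at 1020 and Sox2 at 571 TPM (length-scaled counts, brought to one common total), and the 2C transcript Zscan4c at 472 TPM. Of other cell types, Elf5 and Mesp1 were at 0 counts in the input, which allows up to 0.0811 CPM (counts scaled to library size). Cdx2 stood at 0.0519 and Col1a2 at 0.0746 TPM. Gata6, Gata4, Sox17, T, Mixl1, Pax6, Neurod1 and Col1a1 were detected, from 0.535 (Sox17) to 2.61 TPM (Neurod1). Tubb3, Vim, Thy1 and Eomes, listed for other cell types too, stood at 83.1, 229, 31.9 and 13.8 TPM. The markers of other cell types were thus not all absent.

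The coding ends of 5 members are shown because they identify the pairs the results turn on, namely Hras and Nras, the most alike pair, Rala and Ralb, the next, and Rap1a, the lowest in its ratio of IP to input. Each is the last 30 coding bases on the coding strand in RefSeq (GRCm38.p6, the assembly of mm10), stop codon included. Capitals mark the codon of the CAAX cysteine.

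Hras: tgcatgagctgcaaaTGTgtgctgtcctga

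Nras: tgtatggggctgcccTGTgtgctgatgtag

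Rala: agaatcagagaaagaTGCtgcattttataa

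Ralb: agtttcaaagagcgaTGCtgcttgctgtga

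Rap1a: cctaaaaagaaatcaTGTttgctgctctag

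These windows lie in the last coding exon, at chr7:141191348-141191377 on the minus strand for Hras and chr3:103063420-103063449 on the plus strand for Nras. Those of Rala (chr13:17882379-17882408), Ralb (chr1:119471706-119471735) and Rap1a (chr3:105731985-105732014) are on the minus strand. Besides the CAAX cysteine, the Hras and Nras windows hold further cysteine codons (tgc and tgt), of the kind that take up palmitate in these proteins.

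The word GGACT is a common form of the sequence context in which m6A is placed. The 3 GGACT words of the longest-coding curated Hras mRNA are shown, since Hras was the member most recovered with YTHDF2, followed by the 2 of Rras2, the member next in order. Each word is in capitals with 8 bases on each side.

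Hras coding: actatagaGGACTcctaccgg

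Hras first in the 3′ UTR: gggacctcGGACTatacagcc

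Hras second in the 3′ UTR: agattctaGGACTatggaaat

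Rras2 coding: tttgtgacGGACTatgatcca

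Rras2 in the 3′ UTR: aaatgtttGGACTggttctgc

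The Hras coding window joins 2 exons between chr7:141192609 and chr7:141192838, while those in its 3′ UTR lie in 1 exon at chr7:141190788-141190808 and chr7:141190513-141190533. The Rras2 windows are at chr7:114060393-114060413 and chr7:114047502-114047522, and all 5 are on the minus strand. A match is a description of the letters and not a measured m6A site.

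Hras, a switch upstream of RAF and ERK, was counted 2049 times in the input and 31290 and 30878 times in IP replicates 1 and 2. Both IP libraries stood far above the input, at 887 and 860 CPM against 55.4 CPM. The fitted log2 fold change was 3.88 ± 0.06 (SE), a 14.8-fold difference, with log2 ratios of 3.90 and 3.86 in the single IP libraries. All 3 libraries share the Dox treatment, so this ratio describes recovery in IP and not a change in expression. A level in the bulk input is an average, in which fewer cells with a transcript and less of it per cell cannot be told apart.

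Nras, the closest relative of Hras in the set and also an activator of RAF, was counted 5862 times in the input library against 5006 and 4908 times after IP. Its log2 fold change was -0.28 ± 0.06 (SE), below 0 in both IP libraries, but above it (0.16) once the trend with GC content was removed. Per length, Nras stood above Hras in the input, at 68.0 against 43.1 TPM, and below it in IP, at 63.2 and 60.7 against 717 and 694 TPM.

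The R-RAS group comprises Rras, Rras2 and Mras, which are known for roles in adhesion, PI3K signalling and, for MRAS, the phosphatase complex that activates RAF. Rras2 gave 2112 counts in the input library and 3202 and 3129 after IP. The log2 fold change of 0.54 ± 0.08 (SE) was the second highest of the family.

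Mras had 4378, 5180 and 5265 counts in the same order of libraries. Its log2 fold change was 0.21 ± 0.07 (SE), with nearly equal values in the 2 IP libraries (0.21 and 0.22), and it turned to -0.03 once the GC trend was removed.

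Rras was the least counted member, with 791, 745 and 780 counts. Its 3 libraries lay close together, and the log2 fold change of -0.09 ± 0.13 (SE) turned to 0.05 with length-scaled totals and to 0.003 with plain library totals.

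Rala and Ralb encode the RAL switches, which act through the exocyst in vesicle delivery. Rala gave 2706 input counts against 3452 and 3343 after IP, a log2 fold change of 0.29 ± 0.08 (SE). Ralb had 2271, 2844 and 3102, a log2 fold change of 0.35 ± 0.08 (SE). For both, the IP libraries lay above the input, and their ranges over the IP libraries overlapped (0.25 to 0.32 for Rala, 0.30 to 0.40 for Ralb).

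Rap1a and Rheb lay at the low end. Rheb, the activator of mTORC1, gave 3729 input counts against 2796 and 2374 after IP, a log2 fold change of -0.57 ± 0.08 (SE). It also had the widest gap between the IP libraries of any member, 0.26 on the log2 scale against a median of 0.15 over all tested genes.

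Rap1a, a switch of integrin adhesion and cell junctions, gave 2156 input counts against 776 and 832 after IP. Both IP libraries lay well below the input, at 22.0 and 23.2 CPM against 58.3 CPM. The log2 fold change of -1.46 ± 0.10 (SE) is a 2.76-fold lower level in IP. Of its 3025 exonic bases, 1296 (42.8%) have a copy elsewhere in the genome of at least 95% identity over at least 100 bases. Reads that map to several places were left out by default, so its level is uncertain. Nras had such copies over 3.67% of its bases and the other 7 members over none.

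**Figure D1:**
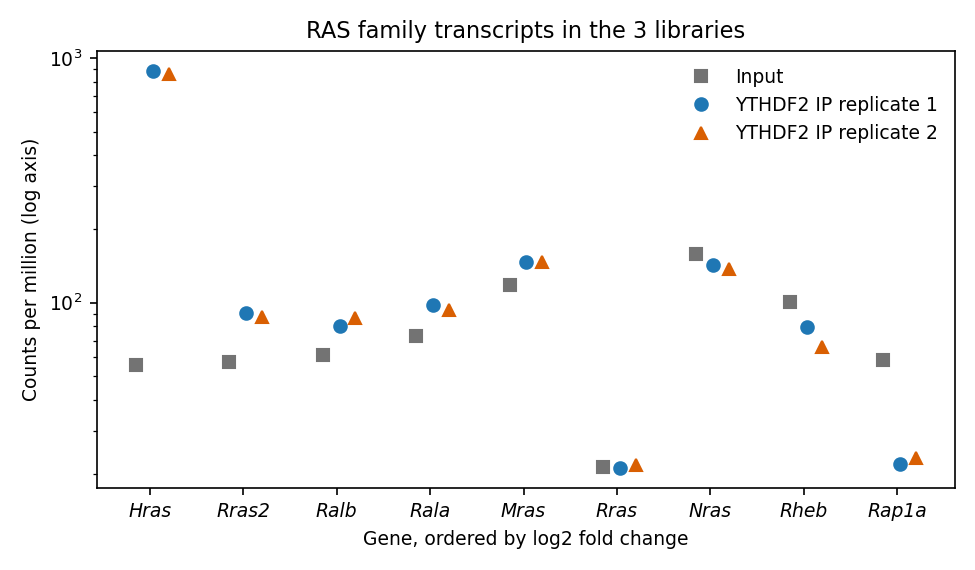
CPM (log axis) of the 9 RAS family genes in the input (squares) and the YTHDF2 IP libraries (circles, replicate 1, and triangles, replicate 2), with 1 point for each library and no error bars. Hras lies at 55.4 CPM in the input and at 887 and 860 CPM in IP, and Rap1a at 58.3 against 22.0 and 23.2 CPM, while the points of the other 7 genes lie closer together.

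At an adjusted p under 0.05 and a fold over 2, 1 member (Hras) was enriched, where 15.0% of all tested genes were, and 1 (Rap1a) was depleted, where 13.0% were. Because the members were chosen on this comparison, nothing is read from those shares. The other 7 members did not reach a fold of 2. The log2 ratios of 5 members lay above 0 and those of 4 below it in both IP libraries, a split that moves with the scaling of Rras and with the GC trend for Mras and Nras as given above.

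The median log2 fold change was 0.21 over the 9 members and 0.06 without Hras. Over all tested genes it was 0.01, with quartiles of -0.72 and 0.81. The 7 members short of a fold of 2 lay within those quartiles, whereas Hras was at the 98.5th percentile and Rap1a at the 9.31st. In the order of the members, each neighbour lay apart from the next in both IP libraries, except Ralb and Rala.

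**Figure D2:**
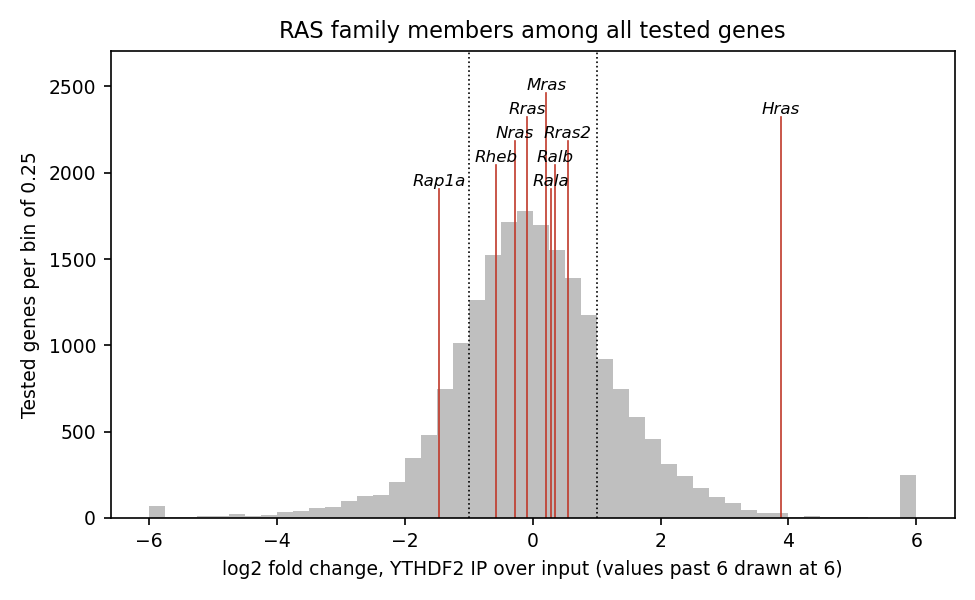
Number of tested genes (y axis) by log2 fold change of YTHDF2 IP over input (x axis, bins of 0.25, values past 6 drawn at 6), with 1 red line for each RAS family gene and dotted lines at a fold of 2. Hras lies at 3.88 in the upper tail, Rap1a at -1.46, and the other 7 genes between -0.57 and 0.54.

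Hras ranked 1 of the 9987 genes whose mean level reached 10 CPM, and 293 of all 19601 tested genes. With the GC trend removed it ranked 2 of 9973 such genes, below Gemin7 (3.30 against 3.29 in log2 fold change). The next below it with that coverage was Gemin7, at a log2 fold change of 3.62. The 3 genes whose pair of log2 ratios lay nearest to that of Hras were Gemin7, part of the SMN complex that assembles snRNPs, Tmem121, a membrane protein gene, and Sdhaf1, an assembly factor of succinate dehydrogenase. Their distances to Hras were 0.38, 0.39 and 0.40 over the 2 IP libraries, and their folds over input 12.3, 12.2 and 12.2. Like Hras they are GC-rich, at 55.6, 64.4 and 58.3% against a median of 49.7% over the tested genes. With the GC trend removed, Tmem121 and Sdhaf1 stood at log2 fold changes of 2.62 and 3.11.

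Levels were compared between members per length, in TPM. In the input, Rheb was the highest at 136 TPM, followed by Nras at 68.0, Rala at 56.6, Ralb at 54.0, Mras at 46.8, Hras at 43.1, Rap1a at 39.7, Rras2 at 33.2 and Rras at 32.8. The exact 95% Poisson intervals, taken on halved counts because mates were counted singly, overlapped between Rala and Ralb, Mras and Hras, Hras and Rap1a, and Rras2 and Rras. These intervals cover counting error alone, and with 1 input library no replicate spread is known. Hras was thus 6th of 9 in the input and did not stand apart from its neighbours.

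In the IP libraries Hras was the highest member, at 717 and 694 TPM, followed by Rheb at 111 and 92.7 TPM. Rap1a was the lowest, at 15.5 and 16.3 TPM. Hras made up 7.86% of the counts of the 9 genes in the input (95% Wilson interval 7.41 to 8.34%), and 56.6% (56.0 to 57.2%) and 56.5% (56.0 to 57.1%) in the IP libraries, with intervals on halved counts that cover counting error alone. Summed over the other 8 members, the level was 649 CPM in the input and 681 and 661 CPM in IP.

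Reads of neighbouring genes were looked at, since counting did not use strand. No member shared an exonic base with another gene of the table. Lrrc56 starts 92 bases from Hras on the opposite strand and gave 161 input counts and 89 and 202 in IP. This neighbour was named after its values were seen.

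The members differed in transcript make-up. Hras lies at chr7:141189934-141194019 on the minus strand, with 2643 exonic bases and a GC content of 59.5%, at the 94.8th percentile of the tested genes. Rras followed at 56.1%, Mras at 53.7%, Ralb at 51.6% and Rras2 at 45.5%. Rala, Rheb, Nras and Rap1a lay close together between 43.2 and 43.5%.

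GC content and log2 fold change had a Spearman correlation of 0.31 over the 19554 tested genes with a sequence, and of 0.70 over the 9 members, which share libraries and related sequences. With the GC trend removed, Hras stood at 3.29 and Rap1a at -1.01 in log2 fold change, and Rras2, Rala and Ralb at 0.79, 0.71 and 0.19. Rheb stood at -0.14 and Rras at -0.43. The part of GC content in these values was not tested.

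**Figure D3:**
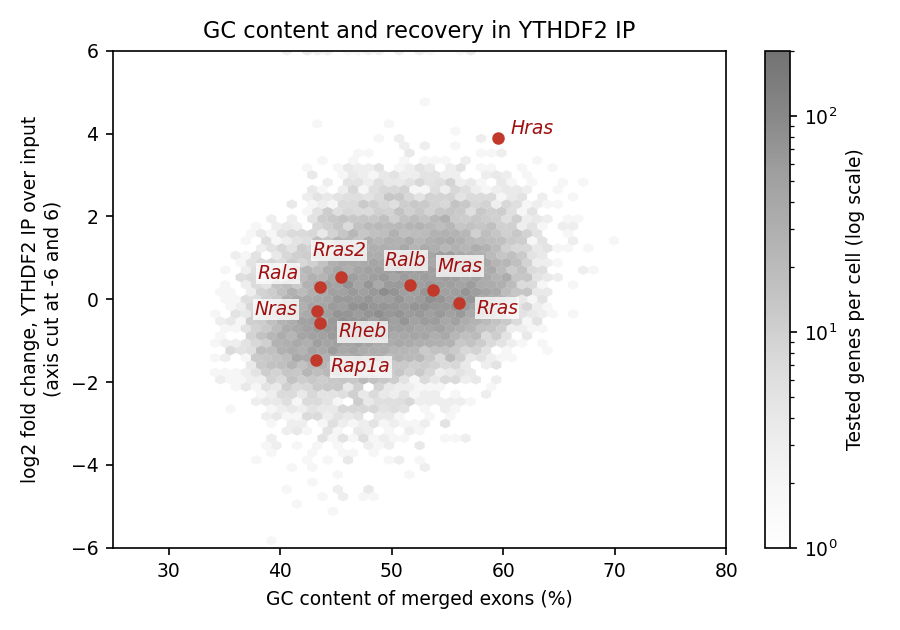
Log2 fold change of YTHDF2 IP over input (y axis, cut at 6 in both directions) against GC content of the merged exons in percent (x axis) for the tested genes, shaded by the number of genes in each cell, with the RAS family genes in red. Hras at 59.5% GC lies at 3.88, whereas Rala, Nras, Rheb and Rap1a, all near 43% GC, spread from 0.29 to -1.46. With the GC trend removed (not drawn), Hras stood at 3.29 and those genes spread from 0.71 to -1.01.

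The word GGAC, the core of the m6A context, was counted on the sense strand of the merged exons, with GGACT contained in it. Hras held 18 GGAC words, or 6.81 per kb, at the 91.2nd percentile. Rras, at 8.19 per kb, and Ralb, at 6.84 per kb, held as many or more per length, with log2 fold changes of -0.09 and 0.35.

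Rheb and Rap1a, the members with the lowest log2 fold changes, held 1.31 and 2.31 GGAC words per kb, against a median of 3.99, and no GGACT. GGAC occurred in 98.3% and GGACT in 88.4% of the tested genes. Rala held 5 GGACT words, more than the 4 of Hras, and Mras held 6. Over the 9 members the Spearman correlation of GGAC density with log2 fold change was 0.62, and over all tested genes 0.24, both without a test. The word is itself rich in G and C, and GC content had correlations of 0.70 and 0.31 there. The separate parts of GGAC density and GC content were not tested.

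Within the mRNA shown above, the 3′ UTR of Hras spans 1414 bases and held 7 GGAC words, and its coding part of 570 bases held 6. Nras has the same coding length but a 3′ UTR of 3727 bases with 4 GGAC words. The coding parts of Rap1a and Rheb, of 555 bases each, held 1 GGAC word each, whereas those of the other 7 members held 5 to 7.

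Coding sequences were compared in 36 pairs. Hras and Nras were 75.7% identical and differed by 4.17 in log2 fold change. Rala and Ralb, at 73.7% identity, differed by 0.06. Rras and Rras2, at 62.8%, differed by 0.64. The least alike pair, Rras and Rheb at 44.7%, differed by 0.47.

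**Figure D4:**
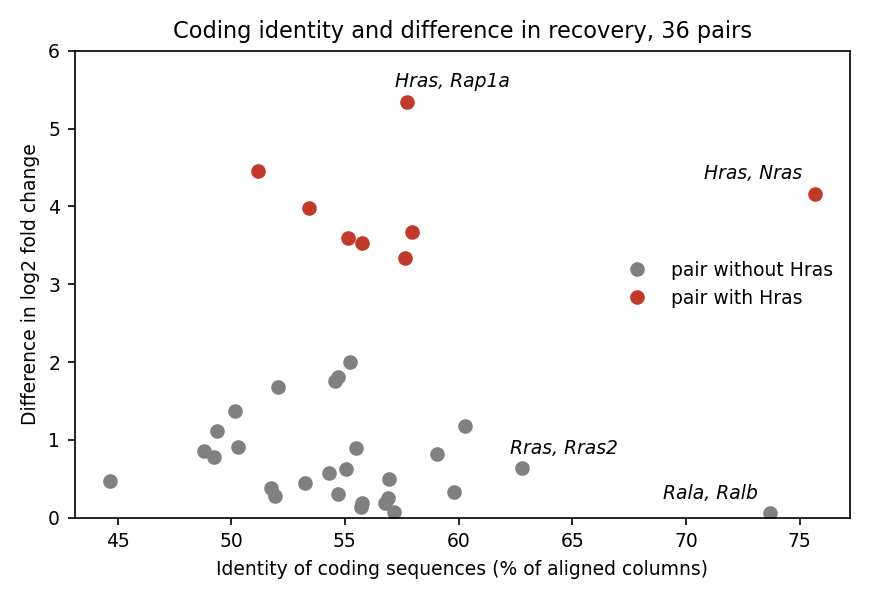
Difference in log2 fold change (y axis) against identity of the coding sequences in percent of aligned columns (x axis) for the 36 pairs of RAS family genes, pairs with Hras in red and others in grey. Hras and Nras differ by 4.17 at 75.7% identity and Rala and Ralb by 0.06 at 73.7% identity, and pairs share genes, so the points are not independent.

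The other genes of the pathway were taken from 8 lists by role, with 123 genes, of which 118 passed the filter. Of these, 14 were enriched and 12 depleted in IP by the edgeR quasi-likelihood test after Benjamini-Hochberg adjustment, that is 11.9 and 10.2% against 15.0 and 13.0% of all tested genes. With length-scaled totals 19 were enriched and 10 depleted, where 18.1 and 10.3% of all tested genes were. With the GC trend removed the counts were 11 and 12, where 13.4 and 11.4% of all genes were. Their median log2 fold change was 0.14, against 0.01 over all tested genes and 0.21 over the members.

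Of 24 other RAS subfamily GTPases tested, 5 were enriched and 3 depleted. These are 20.8 and 12.5%, against 15.0 and 13.0% of all tested genes. Their median was 0.68, or 0.43 once the GC trend was removed. Eras, an ESC-expressed and constitutively active relative, had 802, 1306 and 1252 counts, a log2 fold change of 0.63 ± 0.12 (SE). It did not reach a fold of 2.

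Rit1, a RAS-like switch of growth factor signalling, was the highest called gene of this list with a mean over 10 CPM, at 439 counts in the input and 1871 and 1898 in IP (log2 fold change 2.06 ± 0.12 SE, edgeR adjusted p = 1.02e-17). Nkiras2, an inhibitor of NF-kappaB signalling, was the lowest, at 873 against 183 and 205 counts (-2.21 ± 0.16 SE, edgeR adjusted p = 1.52e-14). Rap1b, the paralog of Rap1a, was depleted too, at 5892 counts in the input and 2208 and 1996 in IP, a log2 fold change of -1.53 ± 0.07 (SE), or -0.95 once the GC trend was removed. It was named after its values were seen.

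Among regulators of the GTP state, 3 of 18 exchange factors were enriched and 1 depleted (16.7 and 5.56%). Of 22 GTPase-activating proteins, 1 was enriched and none depleted (4.55 and 0%), where 15.0 and 13.0% of all tested genes were. The enriched exchange factors included Rasgrp3, at 3 counts in the input, which is the floor, and 16 and 33 in IP. Rasgrp3 was named after its values were seen. Sos1 and Sos2, which load RAS with GTP below receptor tyrosine kinases, had log2 fold changes of 0.05 ± 0.12 and -0.86 ± 0.17 (SE). Nf1 and Rasa1, which switch RAS off, were at -0.50 ± 0.12 and -0.18 ± 0.10 (SE), the latter at 0.29 once the GC trend was removed. None of these 4 passed the fold of 2.

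Ralgds, a RAS effector that activates RAL, was the highest called exchange factor with a mean over 10 CPM, at 725 counts in the input and 3057 and 3292 in IP (log2 fold change 2.09 ± 0.10 SE, edgeR adjusted p = 1.17e-20), or 1.41 once the GC trend was removed. Rasgrp4, an exchange factor known from mast cells, was depleted at -1.08 ± 0.17 (SE), a call lost with library totals (-0.98), with length-scaled totals (-0.93) and with a fixed dispersion of 0.1. Rasal1 was the enriched GTPase-activating protein, at 79 counts in the input and 189 and 195 in IP. Its log2 fold change of 1.24 became 0.66 once the GC trend was removed, and its call was lost with a fixed dispersion of 0.1 too. Its mean was under 10 CPM, and it was named after its value was seen.

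Of 13 genes of lipid modification and trafficking, 2 were enriched and 2 depleted. That is 15.4% in each direction, against 15.0 and 13.0% of all tested genes. The farnesyltransferase subunits Fnta and Fntb stood at 0.43 ± 0.07 and -0.49 ± 0.09 (SE), and Rce1, the CAAX protease, at 0.15 ± 0.11 (SE), or -0.29 once the GC trend was removed. Icmt, the methyltransferase that ends CAAX processing, was just past the fold of 2 at 1.01 ± 0.08 (SE, edgeR adjusted p = 2.60e-14). It was at 0.95 without IP replicate 1 and at 0.71 once the GC trend was removed, and its call was lost with a fixed dispersion of 0.1 too.

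Abhd17a, a depalmitoylating enzyme of NRAS, was enriched at 1.23 ± 0.07 (SE, edgeR adjusted p = 2.57e-18), which became 0.80 once the GC trend was removed. Its call was lost there and with a fixed dispersion of 0.1. Lypla1, another thioesterase that removes palmitate from RAS, was depleted, with 6137 input counts against 1493 and 1300 in IP (-2.17 ± 0.08 SE, edgeR adjusted p = 1.00e-22), or -1.48 once the GC trend was removed.

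Among effectors, none of 14 RAF-MEK-ERK genes was enriched and 2 were depleted. These are 0 and 14.3%, against 15.0 and 13.0% of all tested genes. Their median was -0.53, or -0.40 once the GC trend was removed. The RAF kinases Araf and Braf stood at -0.50 ± 0.08 and -0.81 ± 0.10 (SE), short of a fold of 2. Ppp1cb, a catalytic subunit of the phosphatase that works with MRAS and SHOC2 on RAF, was the lowest, at 7165 counts in the input and 1926 and 1792 in IP (-1.99 ± 0.07 SE, edgeR adjusted p = 8.81e-24), or -1.37 once the GC trend was removed.

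Of 11 PI3K and mTORC1 genes, 2 were enriched and 2 depleted. That is 18.2% in each direction, against 15.0 and 13.0% of all tested genes. With the GC trend removed, both enriched genes (Pik3cd and Pik3r2, at 0.94 and 0.53) fell short of a fold of 2. So did the depleted Pik3r3 (-0.74), while Pik3ca (1.11) and Pik3r1 (1.01) passed that fold. Apart from Pik3cd, these were named after their values were seen. Pik3cd, a catalytic PI3K subunit, was the highest at 1.35 ± 0.15 (SE, edgeR adjusted p = 3.69e-10), or 0.94 once the GC trend was removed. Its call was lost there and with a fixed dispersion of 0.1. Deptor, an inhibitor of mTOR, was the lowest at -1.35 ± 0.12 (SE, edgeR adjusted p = 8.10e-12), a call lost with a fixed dispersion of 0.1. Of 7 RAL and RAP effectors, none was enriched and 2 were depleted (0 and 28.6%). The lowest was Exoc2, an exocyst subunit bound by RAL, at -1.69 ± 0.15 (SE, edgeR adjusted p = 4.68e-12). Of 9 receptor adaptors, 1 was enriched and none depleted (11.1 and 0%). The enriched adaptor was Frs3, an FGF receptor substrate, with 565 input counts against 2397 and 2408 in IP (2.05 ± 0.11 SE, edgeR adjusted p = 5.77e-19), or 1.31 once the GC trend was removed.

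**Figure D5:**
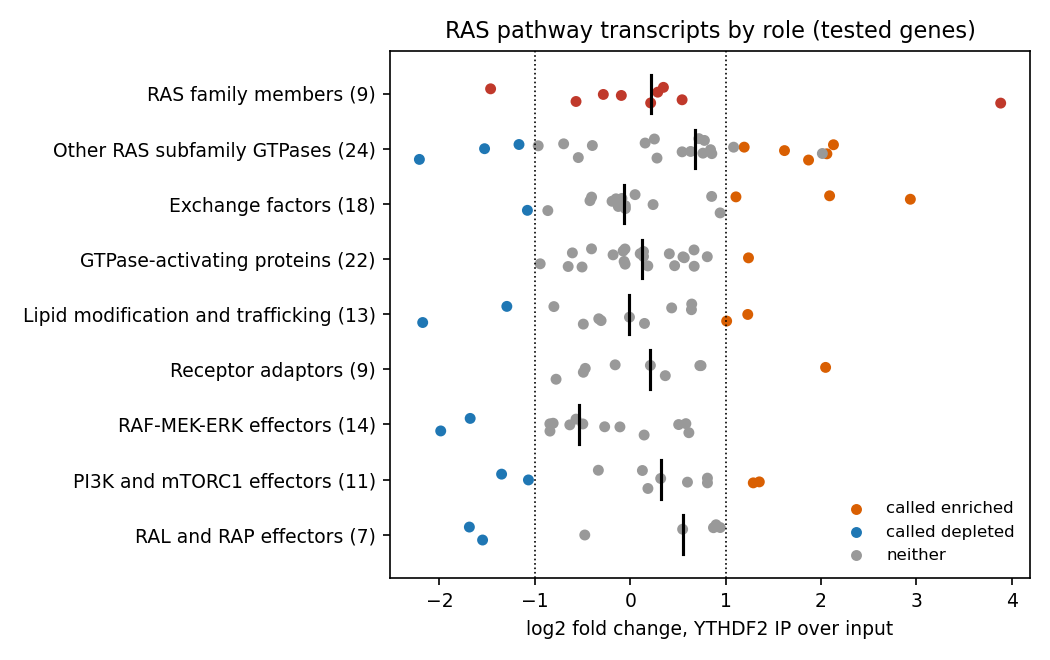
Log2 fold change of YTHDF2 IP over input (x axis) for the tested genes of each RAS pathway list (y axis, number tested in parentheses), with 1 point for each gene, black bars at the medians and dotted lines at a fold of 2. Orange points were enriched, blue points depleted and grey points neither, RAS family members are in red, and Hras at 3.88 lies to the right of every pathway gene drawn.

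The depth limits these values little, since every member had at least 745 counts in each library. The limit is the design, as 1 input library and 2 IP libraries leave 1 residual degree of freedom per gene, and the spread of the input is not known.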

How the data were processed

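Per the labels, total RNA was extracted with Trizol and then used with the antibody, whereas the methods describe IP from a cleared lysate and later RNA extraction, and the 2 accounts cannot be told apart here. Per the submitters' processing notes, fastp 0.19.4, HISAT2 2.2.1 and DESeq2 1.40.2 were used with mm10. The deposited values are raw counts for each gene over merged RefSeq exons, made by the authors with featureCounts 2.0.3 (per the file headers), without strand and with mates counted singly. Multi-mapping reads were left out by default. The table had 0 columns of other samples.

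Genes were filtered with filterByExpr, scaled by TMM (factors 0.957, 1.02 and 1.02) and tested with the robust quasi-likelihood F test of edgeR 4.0.16 in R 4.3.3. The common dispersion was 0.00538 (coefficient of variation 7.33%). Calls needed a Benjamini-Hochberg adjusted p under 0.05 and a fold over 2. Single-library log2 ratios had 0.5 added to each count, and SEs were derived from the F statistic. The p-values and SEs rest on the spread between the 2 IP libraries, which the fit moderates for each gene towards a trend over all tested genes. They hold nothing on the spread of the input. Scripts were tested on simulated data. Exon sequence came from GRCm38.p6 (1-based coordinates), and for genes also annotated on alternate contigs only main-chromosome exons were used. Copies were sought with blastn 2.17.0. Coding sequences were aligned globally with Biopython 1.88, in place of the planned protein sequences, which were not used here.

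The members and gene lists were chosen with earlier results of these data known. Named genes were the members, Eras, genes acting directly on HRAS and NRAS, the highest and lowest called gene of each list with a mean of at least 10 CPM, the 3 genes nearest to Hras in their log2 ratios, and any gene sharing an exon with a member. Some genes under this rule are not reported here. Alternatives were other scalings, DESeq2 1.42.0, no filter, a fixed dispersion, halved counts, removal of a loess trend on GC content, each IP library left out and, chosen after seeing the data, the fit without the robust option.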

Additional observations from a re-analysis of the deposited data

How the results depend on the processing

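The members were chosen on this comparison, so their values under the alternatives are a description. The log2 fold change of Hras lay between 3.29 (GC trend removed) and 4.03 (length-scaled totals), and that of Rap1a between -1.50 and -1.01. Relative to TMM, length-scaled totals raised the median of all tested genes by 0.15 and library totals by 0.10. Length-scaled totals also moved the share of enrichments among calls from 53.6% to 63.6%. With a fixed dispersion of 0.1, 1577 genes were enriched and 1531 depleted in place of 2936 and 2543, and 7 and 7 pathway genes in place of 14 and 12. Icmt, Abhd17a, Pik3cd, Rasal1, Rasgrp4 and Deptor were among the calls lost there. With 1 IP library left out, by fold alone and with no test, 3940 to 4017 genes were enriched and 3660 to 3671 depleted, and among pathway genes 15 to 17 and 12 to 14. With the GC trend removed, Rasa1 turned to 0.29 and Rce1 to -0.29. The cause of these moves was not tested. The fit without the robust option, chosen after seeing the data, called 2966 genes enriched and 2570 depleted. Depth limits genes near the floor of 3 counts, and no member was near it. No paired analysis was possible because there is only 1 input library and its title carries no replicate number.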
